A study of Mus musculus with 36 samples.

Results

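Lipid-associated macrophages are a state of tissue macrophage described in obese fat, and 9 genes linked to that state were followed here through epididymal fat and liver of mice on 3 diets. The genes were Trem2, Tyrobp, Gpnmb, Mmp12, Spp1, Cd9, Lgals3, Tm4sf19 and Vsig8. They were listed by symbol with the fat results already known, so their levels and differences in fat are given as a description, with no p. Where the text says that a member was called in fat, that is its place in the fit over all genes, given beside the share of all genes, and it supports nothing about the members. All 9 were found among the 16690 genes of the epididymal fat (eWAT) count table. Of the 14052 genes of the liver table, 7 were members, and Tm4sf19 and Vsig8 were not analysed here in liver.

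The libraries came from wild-type C57BL/6 male mice of the F0 generation, sampled at 24 weeks of age. All mice ate chow until 6 weeks of age. The LF group then had a low-fat diet for 18 weeks, the HF group a high-fat diet for 18 weeks, and the HFLF group a high-fat diet for 9 weeks followed by a low-fat diet for 9 weeks. The 3 groups therefore share strain, sex, genotype, age and early diet, and the comparison asks how far the genes move on the high-fat diet and how far they come back once it ends. Each group has 6 libraries in each tissue, 36 libraries in all. The labels do not say whether each library is a separate mouse. The p-values below then measure only the spread between these samples, which may be technical.

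As background, Trem2 is a lipid-sensing receptor on the surface of macrophages, microglia and osteoclasts. It has no signalling tail of its own and signals through the adaptor Tyrobp (DAP12), which recruits the kinase Syk. In obese fat, macrophages gather around dying adipocytes in crown-like structures, take up their lipid and switch on lysosomal, lipid-handling and matrix-degrading genes, and loss of Trem2 in mice blunts that programme. The same genes mark foam cells and microglia near amyloid, and Spp1 and Cd9 are also made by cells other than macrophages. In whole tissue, a change in the number of such cells and a change in RNA per cell cannot be told apart, and this holds for every level given below.

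The members lie on 8 chromosomes of GRCm38, and all are annotated as protein coding in GENCODE M21. Trem2 (ENSMUSG00000023992) lies on the plus strand of chr17:48346401-48354147, and Tyrobp (ENSMUSG00000030579) on the plus strand of chr7:30413760-30417585. Gpnmb (ENSMUSG00000029816) is at chr6:49036546-49070929 on the plus strand and Cd9 (ENSMUSG00000030342) at chr6:125460266-125494791 on the minus strand. Mmp12 (ENSMUSG00000049723) is at chr9:7344381-7369499, Spp1 (ENSMUSG00000029304) at chr5:104435118-104441050 and Lgals3 (ENSMUSG00000050335) at chr14:47367751-47386160, all on the plus strand. Tm4sf19 (ENSMUSG00000079625) is at chr16:32400506-32408227 and Vsig8 (ENSMUSG00000049598) at chr1:172555938-172563717, also on the plus strand. Whether counting used strand is not known here. Spp1 overlaps the annotated transcript Gm42793 on the same strand by 1252 bases, beside a merged exon length of 1648 bases for Spp1. On the opposite strand, Cd9 overlaps Gm28809 by 3316 bases and Gm26728 by 368, Vsig8 overlaps 4933439K11Rik by 2192 and Mmp12 overlaps Mmp1b by 1261. These are overlaps of whole gene spans, introns included, and how much exon is shared was not measured. Reads in exons shared on the same strand cannot be assigned to 1 gene. The same holds for opposite strands if counting ignored strand. Of the 5 overlapping genes only 4933439K11Rik was analysed here. It stood between 0.112 and 3.35 CPM in eWAT, CPM being a gene's counts scaled to the library's total.

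Upstream sequences of 6 members are shown because the members moved together across libraries, as described below. Each is a stretch of 220 bases on the plus strand, from RefSeq on GRCm38.p6. It ends just before the RefSeq start or, for Mmp12, whose RefSeq start is chr9:7344397, before the earlier GENCODE start. For Gpnmb and Spp1 the RefSeq start lies upstream of the GENCODE start given above. Capitals mark matches to 3 letter patterns, here called motifs, each searched on both strands and named after factors known to act in macrophages. They are PU.1 (searched as GAGGAAG), AP-1 (TGANTCA) and the MITF and TFE family (TCANGTG). N stands for any base, so a match need not be a site of the factor named.
Trem2, chr17:48346181-48346400: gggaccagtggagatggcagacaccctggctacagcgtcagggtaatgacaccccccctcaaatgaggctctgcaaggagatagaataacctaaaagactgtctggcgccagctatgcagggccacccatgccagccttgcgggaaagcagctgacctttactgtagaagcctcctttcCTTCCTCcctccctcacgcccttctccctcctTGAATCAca
Spp1, chr5:104434891-104435110: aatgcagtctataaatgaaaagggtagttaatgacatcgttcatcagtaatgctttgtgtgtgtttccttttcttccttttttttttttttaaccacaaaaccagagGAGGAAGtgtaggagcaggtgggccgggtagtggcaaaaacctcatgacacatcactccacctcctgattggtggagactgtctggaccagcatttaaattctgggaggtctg
Mmp12, chr9:7344161-7344380: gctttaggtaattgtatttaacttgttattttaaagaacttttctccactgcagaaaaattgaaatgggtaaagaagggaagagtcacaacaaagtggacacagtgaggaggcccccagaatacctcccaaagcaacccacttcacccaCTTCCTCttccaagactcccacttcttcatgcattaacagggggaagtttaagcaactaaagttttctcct
Vsig8, chr1:172555718-172555937: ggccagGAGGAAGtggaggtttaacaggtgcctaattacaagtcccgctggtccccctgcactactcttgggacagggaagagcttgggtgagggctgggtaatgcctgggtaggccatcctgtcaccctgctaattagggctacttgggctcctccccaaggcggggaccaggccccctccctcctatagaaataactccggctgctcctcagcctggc
Gpnmb, chr6:49036298-49036517: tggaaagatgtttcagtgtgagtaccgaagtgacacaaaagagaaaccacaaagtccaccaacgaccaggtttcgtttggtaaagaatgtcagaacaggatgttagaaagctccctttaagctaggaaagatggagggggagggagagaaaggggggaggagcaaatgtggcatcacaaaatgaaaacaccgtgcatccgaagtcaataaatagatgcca
Tm4sf19, chr16:32400286-32400505: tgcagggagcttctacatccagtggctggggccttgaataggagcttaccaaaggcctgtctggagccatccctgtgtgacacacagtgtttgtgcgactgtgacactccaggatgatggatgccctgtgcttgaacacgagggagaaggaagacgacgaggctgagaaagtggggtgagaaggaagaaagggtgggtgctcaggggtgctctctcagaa

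Upstream sequence was matched for 8 of the 9 members, over 11 starts, and Tyrobp was not matched. In the 250 bases before a start, the PU.1 letters were found at 5 of the 11 starts, in 4 members (Trem2, Mmp12, Spp1 and Vsig8), beside 10.6% of 32851 starts of all genes. The AP-1 letters were found at 2 of the 11 (Trem2, as TGAATCA, and the second start of Mmp12, as TGAGTCA), beside 6.75% of all starts. The MITF and TFE letters were found at 2 of the 11, beside 12.2% of all starts. These were the second start of Mmp12 (CACATGA) and Lgals3 (TCAGGTG). With N as any base, the matches and the shares of all starts can include letters that these factors do not bind. Starts of 1 gene can share bases. None of the 3 motifs was found in that window in Gpnmb, Cd9 or Tm4sf19. A match is a description of letters, not of binding.

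Depth ran from 8.94 to 31.19 M counts over the 18 eWAT libraries (median 19.03 M) and from 11.66 to 23.3 M counts over the 18 liver libraries (median 18.42 M). Adipocyte markers summed to between 8617 and 38710 CPM in eWAT, and hepatocyte markers to between 83300 and 110100 CPM in liver, so each tissue carried its own markers. Some eWAT libraries also held transcripts of other tissues. LF 4, LF 5 and HFLF 4 were high in the epithelial keratin Krt8 (217.7, 100.4 and 48.93 CPM, against 1.122 to 21.5 CPM in the other 15), and LF 3 held 214.9 CPM of the epididymal gene Crisp1. The 8 hepatocyte markers summed to 2925 to 7636 CPM in LF eWAT, 32.3 to 1313 CPM in HF and 926.7 to 3281 CPM in HFLF. All 8 were lower in HF than in LF, with log2 differences of -5.855 to -2.318. Of them 4 were called lower by edgeR, where 20.2% of all genes were, and 6 by DESeq2.

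In eWAT, all 9 members stood higher on the high-fat diet, from 2.77-fold for Cd9 to 255.4-fold for Mmp12. For 7 of the 9 every HF library was above every LF library, where 9.68% of all genes did so. After the return to low-fat food all 9 stood between the LF and HF means. For 7 of 9 every HFLF library was above every LF library, where 1.74% of all genes did so. The members were listed with these results known, so nothing is read from these counts. Levels are CPM by library, from total counts, with edgeR's normalisation used in the fits only, and "called" means an adjusted p under 0.05 in edgeR's quasi-likelihood test over all genes of the tissue.

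Trem2, the receptor, had 5.497, 2.631, 5.245, 5.487, 5.994 and 4.842 CPM in the LF libraries, numbered 1 to 6. In the HF libraries, in the same order, it had 335.7, 119.1, 517.8, 340.9, 31.03 and 64.58 CPM. In the HFLF libraries it had 29.41, 119.7, 21.41, 27.58, 21.96 and 14.77 CPM. The LF libraries were tight and all below the rest, HF 5 and HF 6 were far under the other HF libraries, and HFLF 2 stood inside the HF range while the other 5 HFLF libraries lay below all of it. The means were 4.949 ± 1.196, 234.9 ± 192.6 and 39.13 ± 39.79 CPM in LF, HF and HFLF (SD, n = 6 each). Tyrobp, the adaptor that carries the Trem2 signal and that of other myeloid receptors, ranged from 22.2 to 26.45 CPM in LF (median 23.18). It ranged from 45.19 to 348.3 CPM in HF (median 170.2) and from 27.21 to 105.9 CPM in HFLF (median 35.37). Its LF libraries were the closest to each other of any member, the highest being 1.19 times the lowest, and both other groups lay wholly above them. Tyrobp was 6.95-fold higher in HF than in LF (log2 2.80 ± 0.44, SE) and Trem2 45.8-fold (5.52 ± 0.71). The receptor therefore differed more than its adaptor.

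Gpnmb encodes a transmembrane glycoprotein of the lysosome and cell surface that is induced in lipid-loaded macrophages. It ranged from 11.9 to 26.62 CPM in LF (median 16.79), from 194.9 to 4533 CPM in HF (median 1203) and from 87.72 to 753.8 CPM in HFLF (median 130.1). The LF libraries were below all others, and the HF libraries spanned 23.3-fold from HF 5 to HF 3. Gpnmb was 88.9-fold higher in HF (log2 6.47 ± 0.83).

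The secreted members are Mmp12, Spp1 and Lgals3. Mmp12, the macrophage elastase, ranged from 1.742 to 3.367 CPM in LF (median 2.77), from 105.2 to 2017 CPM in HF (median 514.4) and from 59.17 to 763.7 CPM in HFLF (median 108.3). Its fitted difference was log2 7.997 ± 0.913, within 1 SE of that of Tm4sf19, and the median HFLF library was close to the lowest HF library. Lgals3, the sugar-binding galectin-3, ranged from 54.51 to 116.8 CPM in LF (median 90.92), from 266.7 to 2579 CPM in HF (median 985.6) and from 179.7 to 604.9 CPM in HFLF (median 212.0). It was 12.4-fold higher in HF (log2 3.63 ± 0.48), and no LF library reached any HF or HFLF library.

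Spp1, the secreted matrix and cytokine-like protein osteopontin, behaved differently from the other secreted members. From library 1 to 6 its LF values were 0.2177, 0.2133, 0.6556, 15.45, 18.85 and 0.1924 CPM. It stood at 63.31, 14.28, 104.7, 70.1, 5.189 and 7.802 CPM in HF and at 4.585, 15.88, 4.453, 14.83, 3.441 and 1.662 CPM in HFLF. LF 4 and LF 5 overlapped the HF range and the other 4 LF libraries were all under 1 CPM. LF 4, LF 5 and HFLF 4 are the 3 keratin-high libraries named above, and their part in the Spp1 values was not tested. The 8 mesothelial markers, Krt8 among them and none with a group mean of 0, summed to 97.07 to 488.3 CPM in LF, 16.94 to 193.5 CPM in HF and 113.5 to 285.8 CPM in HFLF. LF 1 also had a high sum, 420.3 CPM, with Spp1 at 0.2177 CPM. The 5 measured cholangiocyte markers, also epithelial, summed to 510.5 CPM in LF 4, 226.4 CPM in LF 5 and 138.7 CPM in HFLF 4. In the other libraries they summed to 19.34 (HF 1) to 102.7 CPM (LF 1). The part of either list in the Spp1 values was not tested. Over all libraries Spp1 was 7.65-fold higher in HF (log2 2.94 ± 1.06), and without the 3 keratin-high libraries the difference was 7.16 on the log2 scale. Its call was lost when any 1 of LF 1, LF 2, LF 3, LF 6, HF 1, HF 3 or HF 4 was left out, with values of 2.48 to 2.82.

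Cd9 and Tm4sf19 are membrane proteins that cross the membrane several times, Cd9 a tetraspanin of the surface and of extracellular vesicles and Tm4sf19 a member of the related TM4SF family. Cd9 ranged from 35.41 to 96.94 CPM in LF (median 50.48), from 55.36 to 321.5 CPM in HF (median 143.3) and from 46.59 to 128.6 CPM in HFLF (median 55.77). Its groups overlapped in every pairing, and its HF difference was the smallest of the 9 (log2 1.47 ± 0.38). Tm4sf19 ranged from 0 to 0.2844 CPM in LF (0 to 4 counts), from 2.267 to 55.14 CPM in HF (median 12.74) and from 0.506 to 5.654 CPM in HFLF (median 0.9039). LF 1, LF 4 and LF 6 had 0 counts, and 3 counts there would be 0.163, 0.189 and 0.0962 CPM. With so few LF counts its fitted difference (log2 7.70 ± 1.08) depends on the prior count of the fit and is no bound, but the 3 groups did not touch except between HF and HFLF. Vsig8, an immunoglobulin-domain gene, ranged from 0.0962 to 1.261 CPM in LF (2 to 20 counts), from 13.55 to 176.5 CPM in HF (median 38.03) and from 2.944 to 13.64 CPM in HFLF (median 3.78). Its highest LF library was the keratin-high LF 4, its fitted difference was 7.12 ± 0.78, and HF and HFLF met only where HFLF 2 lay beside HF 5. Both genes passed the table's minimum of 0.5 CPM through their HF and HFLF libraries.

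**Figure D1:**
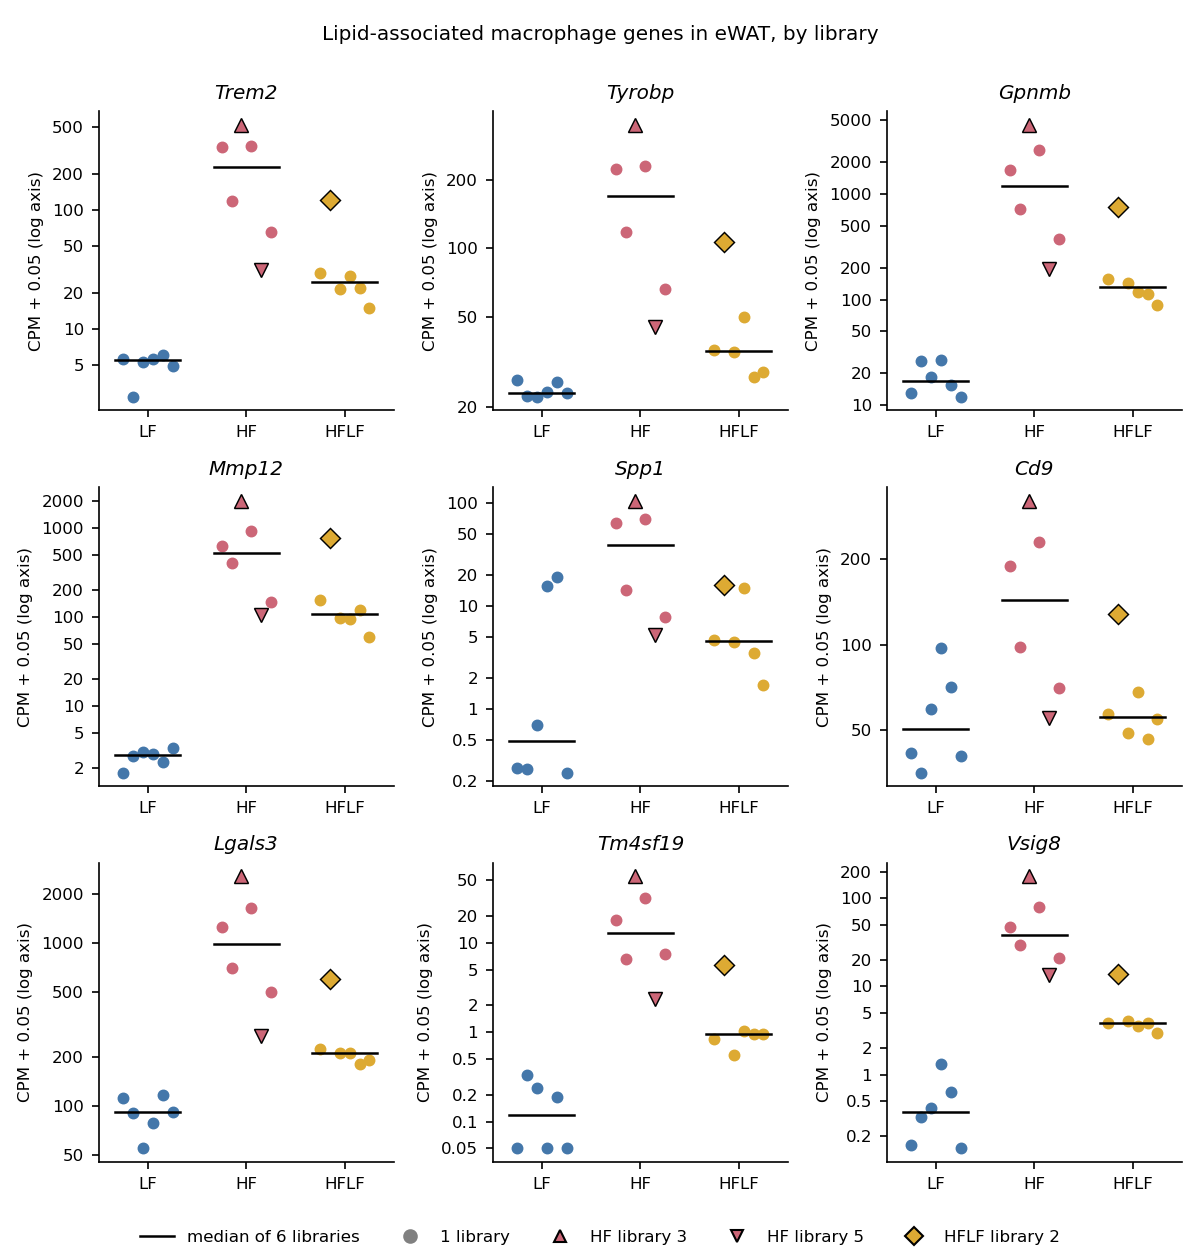
Level of each of the 9 members in each eWAT library, as CPM + 0.05 on a log axis, by diet (LF, HF, HFLF; 6 libraries each), with the group medians as bars and HF 3, HF 5 and HFLF 2 drawn with symbols of their own. LF libraries lie lowest for all members but Spp1 and Cd9, where groups overlap, and HF 3 is the highest HF library and HFLF 2 the highest HFLF library for 9 of 9 members.

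The 9 members were all called higher in HF than in LF, where 40.8% of the 16690 genes were called in either direction and 20.6% higher. The HF libraries lay wholly above the LF libraries for 7 members (all but Spp1 and Cd9), where 9.68% of genes did. Since the members were chosen from this contrast, nothing is read from these counts. The median log2 difference of the 9 was 5.52, beside -0.02 over all genes. Per kilobase of merged exon, the order of the HF means was Lgals3 (624.9 CPM per kb), Gpnmb (258.9), Tyrobp (257.5), Mmp12 (97.15), Cd9 (78.58), Trem2 (47.48), Vsig8 (32.56), Spp1 (26.84) and Tm4sf19 (16.02). The libraries move together, so neighbours in the order were read library by library. Lgals3 was above Gpnmb, Tyrobp above Mmp12 and Cd9 above Trem2 in 6 of 6 HF libraries. Trem2 was above Vsig8, and Spp1 above Tm4sf19, in 5 of 6, and Vsig8 above Spp1 in 4. Mmp12 was above Cd9 in 3 and Gpnmb above Tyrobp in 2, so these 2 pairs had no steady order. In LF the order was another: Lgals3 (48.7 CPM per kb), Tyrobp (35.8) and Cd9 (28.13) led, and Spp1 (3.599), Gpnmb (2.848), Trem2 (1.001), Mmp12 (0.367), Vsig8 (0.2413) and Tm4sf19 (0.08075) followed. There Cd9 was above Spp1, Gpnmb above Trem2 and Trem2 above Mmp12 in 6 of 6 LF libraries. Lgals3 was above Tyrobp, Tyrobp above Cd9 and Vsig8 above Tm4sf19 in 5 of 6, Mmp12 above Vsig8 in 4 and Spp1 above Gpnmb in 2.

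The HF libraries differed greatly among themselves, with the same libraries at both ends for every member. HF 3 was the highest and HF 5 the lowest HF library for 9 of 9, and the ratio of the 2 ran from 5.81 for Cd9 to 24.3 for Tm4sf19. The summed level of the 9 was 163.7 to 257 CPM in LF, 719.4 to 10650 CPM in HF and 441.5 to 2512 CPM in HFLF. The 16 pan-macrophage markers moved with it: their summed level was 1033 to 1525 CPM in LF, 1912 (HF 5) to 9644 CPM (HF 3) in HF and 1407 to 3746 CPM (HFLF 2) in HFLF. HF 3 and HF 5 had 17.901 and 19.85 M counts. HFLF 2 had 12.026 M and HFLF 1 8.942 M, and the rest of that group had 19.761 to 22.086 M. Whether depth had a part in this order was not tested. Among the 36 pairs of members, the correlation of log2 CPM over the 18 libraries had a median of 0.907 (0.684 to 0.982). After the diet means were removed it had a median of 0.815, from 0.381 for Spp1 with Tm4sf19 to 0.963 for Trem2 with Tyrobp. These are descriptions, since members of a library share its depth and its cells.

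The HFLF libraries, from mice returned to low-fat food, were compared with LF and with HF in turn. These contrasts share libraries with each other and with HF against LF, so their values stand side by side and are not independent. Against LF, 3 members were called higher in HFLF: Gpnmb (log2 3.60 ± 0.73), Mmp12 (6.30 ± 0.86) and Vsig8 (3.58 ± 0.75), where 0.563% of all genes were called in either direction, 0.342% higher and 0.222% lower. The other 6 had values of 2.94 ± 0.65 for Trem2, 0.94 ± 0.42 for Tyrobp, 1.545 ± 0.446 for Lgals3, 4.05 ± 1.02 for Tm4sf19, 0.37 ± 1.02 for Spp1 and 0.23 ± 0.38 for Cd9. Libraries did not overlap for 7 members (all but Spp1 and Cd9), where 1.74% of genes did not overlap in that direction. The calls of Gpnmb and Vsig8 were lost when any 1 of 10 of the 12 libraries was left out (all but LF 5 and HFLF 4), with differences of 2.75 to 3.77 and 3.075 to 4.15, near those above. That of Mmp12 was lost without LF 1, LF 2 or LF 4 (6.21 to 6.32), and Trem2 passed without LF 5 or without HFLF 4. The calls over all genes moved as well, from 57 higher and 37 lower to 0 and 0 without LF 1, LF 2 or LF 4 and to 201 and 140 without LF 5, so the share of all genes called ran from 0 to 2.04% over the 12 refits. Without the 3 keratin-high libraries the Spp1 difference was 4.28 on the log2 scale. Leaving out the 6 libraries that earlier work on these data set apart (LF 3, LF 4, LF 5, HF 1, HFLF 4 and HFLF 6) left 0 members called by edgeR. Over all genes, 4 were then called higher and 2 lower. DESeq2 on all libraries called 6 members higher, where it called 366 of 16172 genes higher and 338 lower. With a replicate block edgeR called 1 member, where it called 7 genes higher and 8 lower. At an unadjusted p under 0.05, 7 members were higher. The share of all genes at that threshold was not worked out, so nothing is read from it.

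Against HF, 7 members were called lower in HFLF, where 25.4% of all genes were called, 10.7% higher and 14.7% lower. With upper-quartile scaling of the libraries that split of all genes changed from 1784 higher and 2458 lower to 2352 and 2033. Vsig8 differed by -3.535 ± 0.616 and Tm4sf19 by -3.64 ± 0.83 on the log2 scale, 11.6-fold and 12.5-fold lower. Gpnmb (-2.87 ± 0.70), Trem2 (-2.58 ± 0.61), Lgals3 (-2.08 ± 0.45), Tyrobp (-1.855 ± 0.421) and Cd9 (-1.24 ± 0.38) made up the rest. Mmp12 (-1.70 ± 0.67) and Spp1 (-2.57 ± 1.05) did not pass. DESeq2 called all 9 lower, where it called 2119 of 16496 genes higher and 2991 lower. In edgeR all 9 had an unadjusted p under 0.05. The share of all genes at that threshold was not worked out, so nothing is read from it. For all 9 members at least 1 HFLF library overlapped the HF range (4.48% of all genes had every HFLF library below every HF library), and for 9 of 9 the HFLF 2 library was above HF 5. HFLF 2 was above HF 6 for 7 members and above HF 2 for 5. The highest of the other 5 HFLF libraries was above HF 5 for 4 members (Tyrobp, Mmp12, Spp1 and Cd9). Mmp12 passed without HF 5, HF 6 or HFLF 2 (-1.91 to -2.69), and the Cd9 call was lost without HF 3, HF 4, HFLF 5 or HFLF 6. Without the 6 libraries set apart only Vsig8 was called, where over all genes 622 were called higher and 768 lower.

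The degree of return is the share of the HF against LF difference, on the fitted log2 scale, that was gone in HFLF. It was 21.25% for Mmp12, 44.3% for Gpnmb, 46.7% for Trem2, 47.3% for Tm4sf19, 49.7% for Vsig8, 57.4% for Lgals3, 66.3% for Tyrobp, 84.2% for Cd9 and 87.4% for Spp1. The median of the 9 was 49.7%, and over all 3441 genes called higher in HF it was 69.9% (quartiles 52.8% and 87.7%). The share depends on the log2 scale: the Mmp12 means were 2.656, 703.1 and 215.0 CPM in LF, HF and HFLF. The members had a median log2 difference of 5.52 in HF against LF. Shares for other genes with differences of that size were not worked out, so nothing is read from the gap between the 2 medians. Leaving out 1 library at a time moved Mmp12 between 13.95% and 33.6%, Trem2 between 42.5% and 60.0%, Tyrobp between 61.8% and 80.4% and Cd9 between 76.2% and 102.6%. All 9 were highest without HFLF 2, and 7 were lowest without HF 3. Single HFLF libraries were set against the LF and HF means of log2 CPM, a measure other than the fit. HFLF 2 had the lowest share for all 9: 7.55% for Trem2, -10.75% for Mmp12 (above the HF level) and 3.01% for Cd9. HFLF 6 had 67.7% for Trem2 and 39.2% for Mmp12. By this measure Spp1 had 88.1% in HFLF 6 and from 15.26% (HFLF 2) to 64.73% (HFLF 5) in the others, all but HFLF 6 well below its fitted share. Spp1 moved most with the libraries used: its fitted share was 67.2% without LF 5 and 40.1% without the 3 keratin-high libraries, where Cd9 had 69.6%, Tyrobp 67.4% and Mmp12, still the lowest, 19.5%. The Tm4sf19 share divides by a difference that depends on the prior count of the fit, so its place in the order is uncertain.

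**Figure D2:**
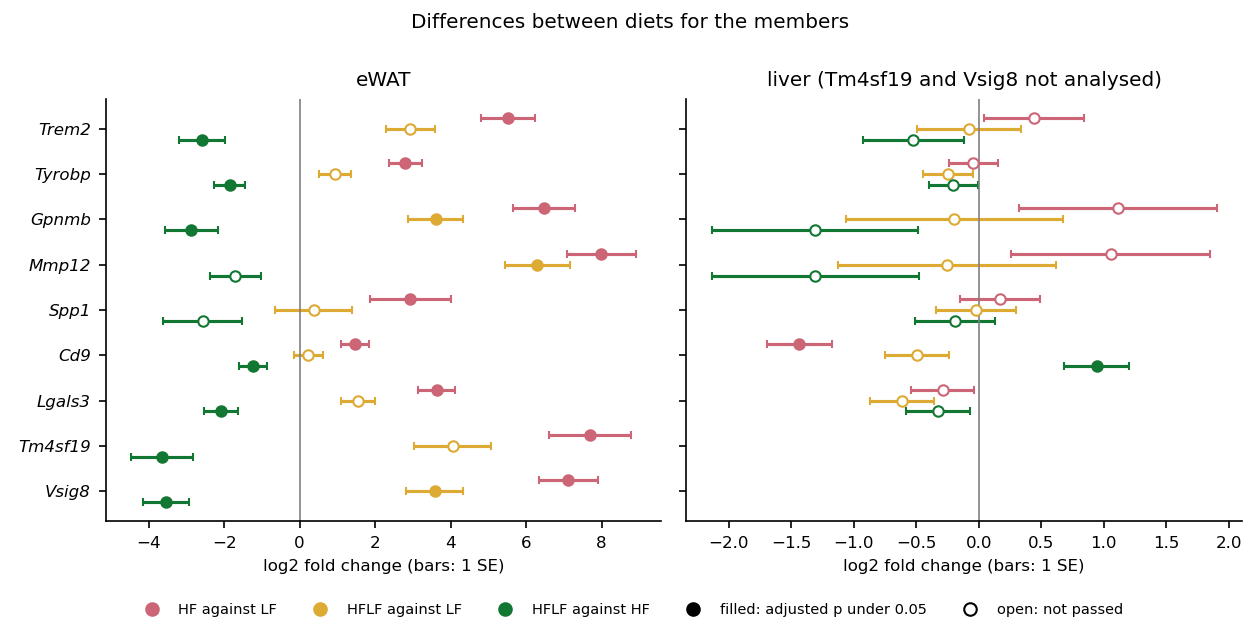
Log2 fold change of each member for the 3 pairs of diets, in eWAT (left) and, for the 7 members analysed there, in liver (right, on a narrower axis), as points with bars of 1 SE, filled where the adjusted p over all genes is under 0.05. In eWAT the HF differences from LF run from 1.47 (Cd9) to 7.997 (Mmp12), and in liver Cd9 has the only filled points.

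Members were also set against the level of macrophage markers in the same library, as log2 CPM minus the mean log2 CPM of the 16 pan-macrophage markers. That mean was 5.42 in LF (5.25 to 5.59), 7.26 in HF (6.01 to 8.27) and 6.01 in HFLF (5.60 to 6.89). Relative to it, Mmp12 was 5.55 higher in HF than in LF on the log2 scale, Vsig8 5.09, Gpnmb 3.99, Trem2 3.17, Spp1 2.60, Lgals3 1.503 and Tyrobp 0.67, while Cd9 was 0.55 lower (-0.55). The Tm4sf19 value, 5.47, depends on the prior count, since 3 LF libraries had 0 counts. The Trem2 value was -2.976 at most in the LF libraries and -1.056 at least in the HF libraries, so these did not overlap. The same held for all members but Spp1 and Cd9. The members were listed with this contrast known, and no share of all genes was worked out for this measure. Nothing is therefore read from how many members separate or stand higher by it. In HFLF, Mmp12 stayed 5.15 above its LF value by this measure, Vsig8 3.12, Trem2 2.03 and Tyrobp 0.21, while Cd9 was at -0.37. With single markers as the reference, Tyrobp turned: relative to Adgre1, the gene of the F4/80 antigen, it was -0.31 in HF against LF, and relative to Cd68, a lysosomal glycoprotein, -0.72. In HFLF against LF it turned as well, to -0.12 and -0.45. Lgals3 was 0.52 and 0.11, Mmp12 4.57 and 4.15, and Cd9 -1.53 and -1.94 relative to the same 2 genes. The Lgals3 value relative to Cd68, 0.11, was small beside its SD of 0.33 in LF and 0.20 in HF. Spp1 was 1.21 relative to Cd68, with an SD of 2.95 in LF. Nothing is read from the count of members higher with these references either.

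**Figure D3:**
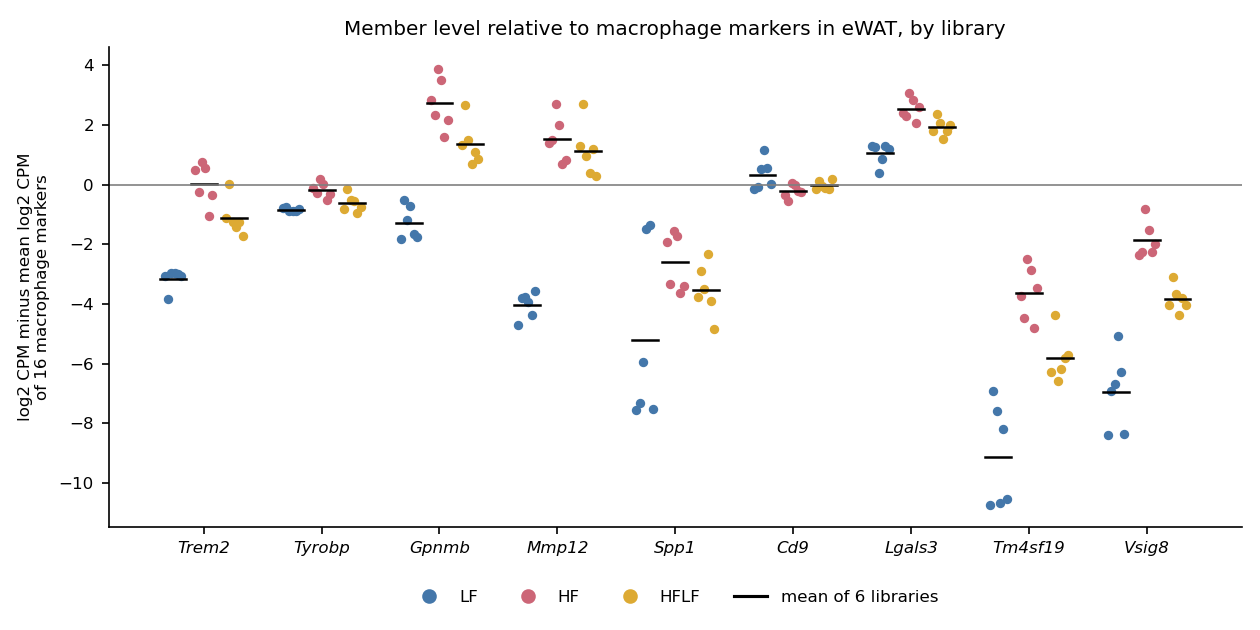
Level of each member relative to the mean of 16 pan-macrophage markers in the same eWAT library (log2 CPM minus mean log2 CPM), by diet, 6 libraries each, with the group means as bars. The HF libraries lie wholly above the LF libraries for all members but Spp1 and Cd9, and Cd9 is lower on average in HF (difference -0.55). This is a description only, since the members were listed with this contrast known.

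The genes around Trem2 were read from lists chosen with earlier results of these data known, so their counts are a description beside the 20.6% of genes called higher and 20.2% called lower. Of 22 measured genes of the Trem2 pathway (ligands, signalling partners, sheddases and related receptors), 18 rose, 3 fell and 1 did not pass in HF against LF, with a median log2 difference of 1.67. The PI3 kinase subunit Pik3cd rose by 1.77 ± 0.24, the signalling proteins Vav1 and Btk by 2.52 ± 0.35 and 2.46 ± 0.35, and Adam10, a protease that sheds Trem2, by 0.7595 ± 0.105. Syk, the kinase recruited by Tyrobp, rose by 2.28 ± 0.33. The 3 that fell were the reported Trem2 ligands Apoe (5756 to 3567 CPM, -0.73 ± 0.10) and Clu (-0.62 ± 0.23), and Siglech (-1.46 ± 0.33), a plasmacytoid dendritic cell and microglia receptor. Both ligands on the list therefore went the opposite way to the receptor, and both are also made by cells other than macrophages. Against HF, 16 of the 22 fell in HFLF and 2 rose, where 14.7% of all genes fell and 10.7% rose. Without the 6 libraries set apart 1 fell and 1 rose. Over all genes, 2458 lower and 1784 higher then became 768 and 622. Against LF none of the 22 was called in HFLF by edgeR or by DESeq2, although 8 had an unadjusted p under 0.05, all higher.

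Other genes described in lipid-associated macrophages followed the members. Of 27 measured, 23 rose and none fell in HF (median 1.60; DESeq2 called 1 lower, and 1 was lower at an unadjusted p under 0.05). Itgax, the CD11c integrin chain, rose by 5.34 ± 0.71 and Il1rn, the interleukin-1 receptor antagonist, by 5.065 ± 0.636. The protease inhibitor Cstb rose by 1.65 ± 0.22 and the phosphatidylserine binder Anxa5 by 0.86 ± 0.12. Ch25h, Abca1, Hvcn1 and Cd63 did not pass. In HFLF against LF only Itgax was called by edgeR (3.11 ± 0.65), while DESeq2 called 4 higher and 1 lower and 15 had an unadjusted p under 0.05. Against HF, 21 of the 27 fell in HFLF, where 14.7% of all genes fell. Without the 6 libraries set apart 4 fell, where over all genes 2458 lower became 768. Of 5 genes of that state which adipocytes also express, Plin2 (1.56), Fabp5 (1.16) and Cd36 (0.34) rose, and Fabp4 (-0.44) and Lpl (-0.03) did not pass.

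Genes of macrophage fusion and of osteoclasts share Trem2 and Tyrobp as regulators. Of 12 measured, 8 rose and 2 fell in HF (median 0.97). Atp6v0d2, a proton pump subunit of osteoclasts and macrophages, rose by 7.13 ± 0.83, with means of 1.195 CPM in LF, 180.0 CPM in HF and 24.8 CPM in HFLF. It was the 1 gene of this list called in HFLF against LF (4.27 ± 0.77), and that call and the one of Itgax were lost in most refits that left out 1 library. The bone-resorbing protease Ctsk rose by 3.52 ± 0.56 and Ocstamp by 2.18 ± 0.43. Mmp9, a gelatinase, fell by 2.61 ± 0.36 and Acp5, the tartrate-resistant phosphatase, fell by 0.50 ± 0.16. The 2 that fell became 1 without HF 1, HF 3 or HF 4. Among matrix proteases the elastase Mmp12 and the gelatinase Mmp9 thus differed in opposite directions in the same libraries.

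Of the 16 pan-macrophage markers, 13 rose in HF and none fell (median 1.98; by DESeq2 14 rose and 0 fell, and 1 was lower at an unadjusted p under 0.05). Mpeg1 rose by 3.73 ± 0.47, Cd68 by 3.62 ± 0.53, Adgre1 by 3.14 ± 0.47 and the leukocyte marker Ptprc by 2.37 ± 0.35. Spi1, the gene of PU.1, rose by 2.53 ± 0.39. Of 10 markers of resident adipose macrophages 4 rose (Mrc1, Folr2, Clec10a and F13a1), and the median was 0.11. Without HF 2, 4 of the resident markers fell. No marker of resident macrophages had HF libraries wholly above LF libraries, where 9.68% of all genes did. With 10 markers that is near the share of all genes, so nothing is read from it. Of 9 T and B cell markers none was called by edgeR or DESeq2, and 0 had an unadjusted p under 0.05, with a median of 0.71. Of 7 monocyte and neutrophil markers 3 rose, among them the chemokine receptor Ccr2 (1.64 ± 0.21), and S100a9 fell by 3.03. Of 7 dendritic cell markers 5 rose, which became 3 without the 6 libraries set apart.

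Partners and relatives of single members were followed too. Of 9 osteopontin receptors, Cd44 rose by 2.79 ± 0.47 and 5 integrin chains rose with it, among them Itga4 (1.83 ± 0.32) and Itgb1 (0.455 ± 0.081), while Itga8 fell by 2.34. The 6 that rose became 3 without HF 3. The other galectins did not move as Lgals3 did: 3 of 8 rose, the largest by 0.35 (Lgals9), and the adipocyte galectin Lgals12 fell by 1.345 and Lgals4 by 0.84. The 3 became 1 with upper-quartile scaling, and 1 without the 6 libraries set apart. Of 18 other tetraspanins and TM4SF genes 5 rose, 4 fell and 9 did not pass (median -0.01), with the leukocyte tetraspanins Cd53 (2.42) and Cd37 (1.76) among those that rose. Of 17 elastic fibre genes, which include Eln, the gene of the Mmp12 substrate elastin, 9 rose and none fell (0 by DESeq2, and 0 lower at an unadjusted p under 0.05), with Lox at 1.52 ± 0.20, Fbln2 at 1.36 ± 0.22 and Loxl1 at 1.10 ± 0.18. Of 10 adipocyte markers 7 fell, Cfd by 3.92 ± 0.54 and Pnpla2 by 1.15 ± 0.21, and Lep rose by 1.94 ± 0.42. In HFLF against HF, 7 adipocyte markers rose and 14 of 16 pan-macrophage markers fell, where 10.7% of all genes rose and 14.7% fell. Without the 6 libraries set apart these became 2 and 0, where over all genes 1784 higher and 2458 lower became 622 and 768. The adipocyte count was 4 without HF 3, HF 4, HFLF 1, HFLF 5 or HFLF 6.

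**Figure D4:**
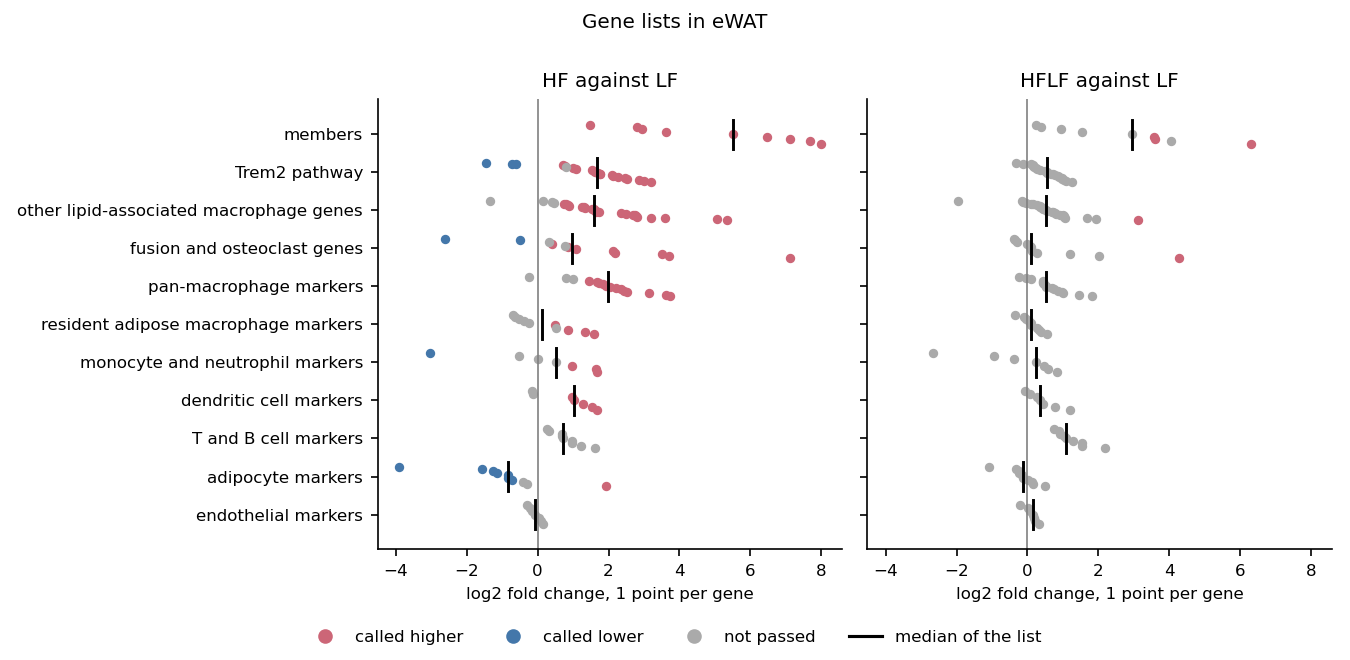
Log2 fold change in eWAT, HF against LF and HFLF against LF, of each gene of the lists read beside the members, 1 point per gene, coloured where it passed the test (red higher, blue lower, grey not passed), with the median of each list as a bar. The Trem2 pathway, the other lipid-associated macrophage genes and the pan-macrophage markers have HF medians of 1.67, 1.60 and 1.98, while resident macrophage markers lie near 0 (0.11).

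The genes most like the members across libraries were ranked among 12956 genes by the Pearson correlation of log2 CPM with the mean of the members' standardised levels, over the 18 eWAT libraries. The 10 highest were Mpeg1 (0.994), Cd300c2 (0.990), Itgax (0.990), Ctss (0.988), Gas2l3 (0.987), Slc37a2 (0.986), Cd84 (0.985), Myo1f (0.984), Slamf7 (0.984) and Hk3 (0.982). After the diet means were removed the 10 highest were Pld3 (0.981), Capg (0.979), Apobec1 (0.977), Lpxn (0.977), Mpeg1 (0.976), Tnfrsf1b (0.975), Ctsk (0.975), Dnase2a (0.972), Dnase1l1 (0.972) and Gas2l3 (0.971). Mpeg1 and Gas2l3 stood in both lists. Itgax had means of 5.965 CPM in LF, 248.8 CPM in HF and 52.93 CPM in HFLF, and Mpeg1 of 34.12, 464.5 and 123.1 CPM. Points share library and cell content, so the coefficients are given with no p.

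In liver, the members did not follow their course in fat. Of the 7, only Cd9 was called in HF against LF, and it fell. From library 1 to 6, Cd9 had 49.28, 44.43, 15.87, 30.41, 29.81 and 24.31 CPM in LF, 23.99, 9.224, 8.706, 12.63, 10.03 and 12.8 CPM in HF and 24.46, 20.81, 24.11, 33.52, 25.82 and 21.73 CPM in HFLF. HF libraries lay below LF libraries except that HF 1 lay above LF 3. The log2 difference was -1.44 ± 0.26 (adjusted p = 0.000909, edgeR quasi-likelihood test with Benjamini-Hochberg adjustment over all liver genes), where 34.8% of genes were called, 16.3% higher and 18.5% lower. It was -1.12 without LF 1 to LF 4, the liver libraries set apart by earlier work, and still passed. In HFLF against HF it rose by 0.94 ± 0.26 (adjusted p = 0.0461, edgeR quasi-likelihood test), where 5.23% of genes were called, 2.18% higher and 3.05% lower. That call was lost when any of 10 of the 12 libraries was left out, all but HF 1 and HFLF 2, with differences of 0.85 to 0.98 that stayed near the one in all libraries. The degree of return was 65.6% (59.1% to 74.2% over leaving out 1 library).

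The other 6 members were not called in liver in any contrast, and most were low there. Trem2 ranged from 0.7102 to 1.668 CPM in LF, from 0.8386 to 5.095 CPM in HF and from 0.6566 to 2.43 CPM in HFLF. Its HF maximum was HF 1, and the HF difference of 0.44 ± 0.40 (adjusted p = 0.403, edgeR quasi-likelihood test) became -0.16 without HF 1. Gpnmb ranged from 0.1639 to 2.775 CPM in LF and from 0.1175 to 7.321 CPM in HF (1.11 ± 0.79, edgeR adjusted p = 0.287), and Mmp12 from 0.2146 to 3.014 and from 0.3524 to 6.579 CPM (1.055 ± 0.794, edgeR adjusted p = 0.315). Without HF 1 these 2 differences were 0.08 and 0.09. At a few to 148 counts a library these levels leave wide errors, and differences of that size were not detectable. Tyrobp ranged from 5.72 to 10.72 CPM in LF and from 4.816 to 13.31 CPM in HF (-0.04 ± 0.20, edgeR adjusted p = 0.879). Lgals3 ranged from 2.622 to 8.278 and from 2.878 to 8.804 CPM (-0.29 ± 0.25, edgeR adjusted p = 0.388). Spp1 was well expressed, from 20.71 to 41.01 CPM in LF and from 20.37 to 85.42 CPM in HF (0.17 ± 0.32, edgeR adjusted p = 0.701), and it turned to -0.20 without HF 1. HF 1 was the highest HF library for all 7 members and LF 1 the highest LF library for 6. HF 4 was second in HF for Gpnmb (2.732 CPM) and Mmp12 (2.628 CPM). The 6 measured adipocyte markers summed to 397.1 CPM in HF 1 and 341.5 CPM in HF 4, against 144.1 to 190.8 CPM in the other 4 HF libraries, 107 to 160.2 CPM in LF and 158.1 to 215.5 CPM in HFLF. Their part in the member levels was not tested. In HFLF against LF, where 22.6% of genes were called (10.2% higher and 12.4% lower), no member was called by edgeR or DESeq2, and 1 of 7 had an unadjusted p under 0.05: Lgals3 at -0.61 ± 0.26 (edgeR adjusted p = 0.0891). Lgals3 passed without LF 6 (-0.76).

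**Figure D5:**
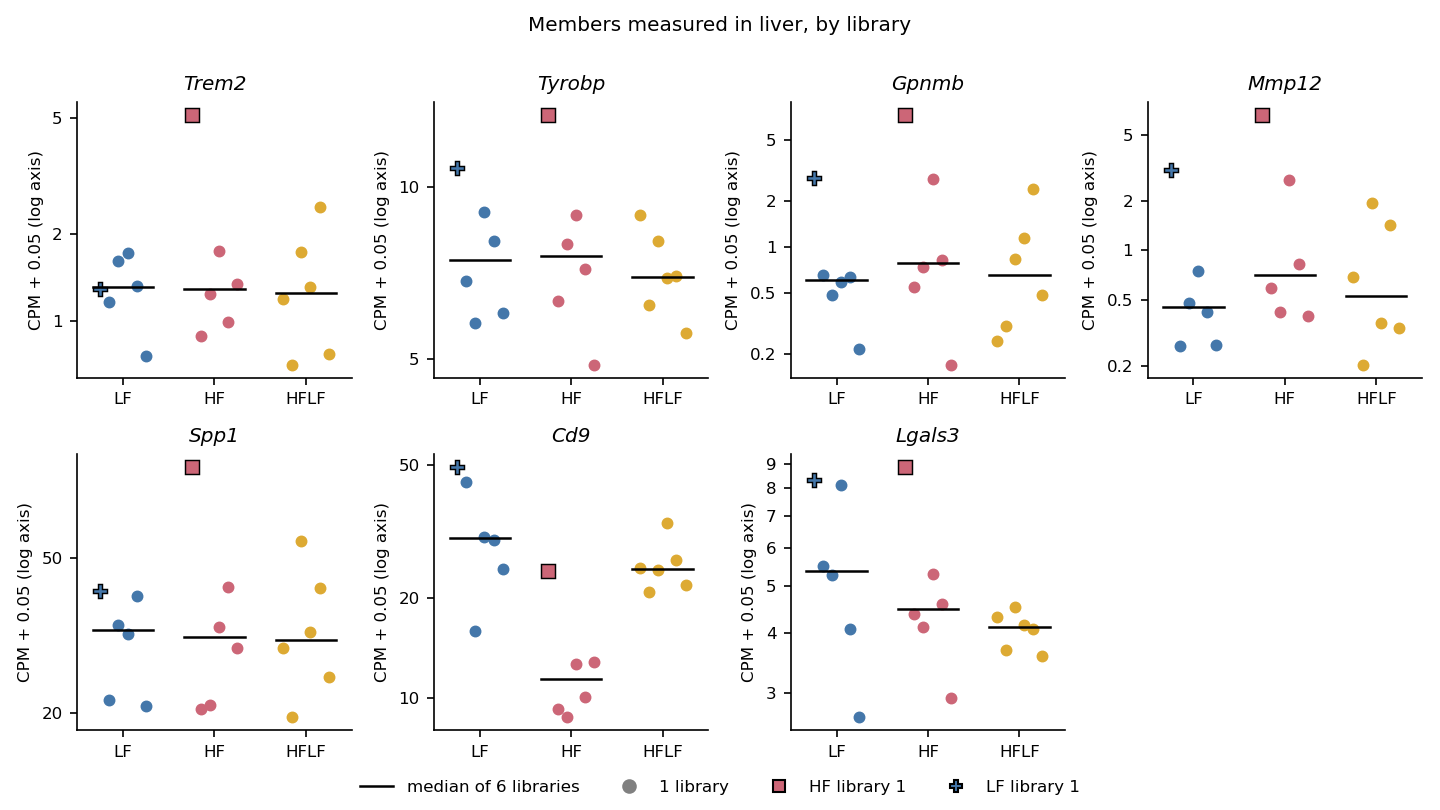
Level of each of the 7 members analysed in liver, as CPM + 0.05 on a log axis, in each library by diet (6 libraries each), with group medians as bars and HF 1 and LF 1 drawn with symbols of their own. Cd9 is lower in HF (median 11.33 CPM) than in LF (30.11) and HFLF (24.28), and HF 1 is the highest HF library for all 7.

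In liver the macrophage lists had few calls and several other lists more. Those named next from the Trem2 pathway, the other lipid-associated macrophage, pan-macrophage, Kupffer, tetraspanin and fusion lists did not pass without LF 1 to LF 4. That refit leaves 2 LF libraries, and over all genes 2295 higher and 2596 lower became 158 and 139. The lost calls therefore say nothing particular about these lists. Of 18 measured genes of the Trem2 pathway 1 rose (Ptpn6, by 0.33 ± 0.08) and 1 fell (Adam17, by 0.35 ± 0.08) in HF against LF, beside 16.3% and 18.5% of all genes. With upper-quartile scaling the split of all genes changed from 2295 higher and 2596 lower to 2952 and 1869. Of 24 other lipid-associated macrophage genes 2 rose (Clec7a and Nceh1) and 4 fell (Il1rn, Abca1, Mmp14 and Ctsl). Il1rn, which rose by 5.065 in fat, fell by 2.10 ± 0.62 in liver. Of 16 pan-macrophage markers Mertk rose (0.45 ± 0.12) and Itgam and Cd14 fell (-1.51 ± 0.39 and -1.37 ± 0.48), and their summed level was 244.8 to 423.3 CPM in LF, 254 to 490 CPM in HF and 295.4 to 448.5 CPM in HFLF. Of 7 markers of Kupffer cells, the resident macrophages of liver, 1 rose (Slc40a1, by 0.51 ± 0.15). Cd81, another tetraspanin, rose by 0.48 ± 0.09 while Cd9 fell. Of 11 fusion and osteoclast genes 3 rose and 2 fell: Atp6v0d2 rose in liver as it did in fat, from 0.6008 to 2.392 CPM (1.95 ± 0.66), and Mmp9 fell by 1.79 ± 0.35. Of 6 adipocyte markers 4 rose (Cfd by 4.44 ± 1.04, Cidec by 2.17 ± 0.64, Pparg by 1.57 ± 0.34 and Lipe by 1.07 ± 0.10) and none fell (0 by DESeq2, and 0 lower at an unadjusted p under 0.05 in edgeR). Of 5 other galectins 3 rose, Lgals1 by 1.74 ± 0.46 the most, which became 1 without HF 1 or without HF 4. Of 5 genes of the lipid-associated state that adipocytes also express, Cd36 rose by 2.56 ± 0.47 and Fabp4 by 0.74 ± 0.28, and Fabp5 fell by 3.80 ± 0.57. Without LF 1 to LF 4, 1 adipocyte marker was still called higher and 1 gene of the last list lower, with 0 called among these galectins by edgeR.

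The difference between the tissues was fitted as an interaction over the 13203 genes in both tables, of which 45.6% were called. The HF against LF log2 difference was higher in eWAT than in liver for all 7 members: by 6.84 ± 1.24 on the log2 scale for Mmp12, 5.27 ± 1.13 for Gpnmb, 4.99 ± 0.85 for Trem2, 3.86 ± 0.54 for Lgals3, 2.84 ± 0.48 for Cd9, 2.78 ± 0.49 for Tyrobp and 2.67 ± 1.03 for Spp1. The eWAT side of this difference is the one the members were chosen on, so it is a description. Cd9 is the 1 member that was called in both tissues, and its 2 differences were of like size and opposite sign (1.47 in fat and -1.44 in liver). The fit takes the 2 tissues as independent, and the labels do not say whether eWAT and liver libraries of 1 number share a mouse. Such libraries were most alike more often than unlinked numbers would be, as given below. With libraries of the same diet and number as a block, the 7 differences were 2.53 (Tyrobp) to 6.62 (Mmp12).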

How the data were processed

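RNA was extracted with TRI reagent and sequenced from eWAT and liver, per the labels' protocols. The authors deposited 1 table of whole-number read counts per gene for each tissue, and these counts were used as deposited. STAR and GRCm38.p6 are named in the submitters' processing notes, while no source used here gives the counting tool, annotation or strand setting. Every gene in the tables reaches 0.5 CPM in at least 6 libraries. The deposited tables named RPKM were not used, because the gene length they imply agreed within 5% across libraries for 0.068% (eWAT) and 0.03% (liver) of genes.

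Counts were fitted per tissue over all 18 libraries with edgeR 4.0.16 (TMM, quasi-likelihood test, R 4.3.3) with Benjamini-Hochberg adjustment over all genes, and a gene was called at an adjusted p under 0.05. CPM used total counts, and log2 CPM a prior count of 0.5. The fit was tested on simulated counts. Alternatives were DESeq2 1.42.0, upper-quartile scaling, a mean CPM of at least 5, fits of 2 groups, a replicate block, and leaving libraries out. The members, the lists and the libraries set apart were chosen with earlier results of these data known. The exclusion of the keratin-high libraries, and the block shared by the tissues, were chosen after seeing the data. The named genes are all members, up to 4 genes per list with the smallest p, and the 10 genes most like the members by each measure. Syk, Spi1, Apoe, Clu, Siglech and the other list genes outside this rule were named after their values were seen.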

Additional observations from a re-analysis of the deposited data

Results flagged for a closer look

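One library lay far from the other 5 of its group for 7 of the 48 combinations of member, tissue and diet examined, with a gap to its neighbour that exceeded Dixon's critical value for groups of 6. Chance alone gives such a gap in about 1 of 20 groups. In 6 of the 7 the library was HFLF 2 of eWAT, the highest of its group: Trem2 at 119.7 CPM, Gpnmb at 753.8 CPM, Cd9 at 128.6 CPM, Lgals3 at 604.9 CPM, Tm4sf19 at 5.654 CPM and Vsig8 at 13.64 CPM. The pan-macrophage markers of that library summed to 3746 CPM, and those of the other 5 HFLF libraries to 1407 to 1942 CPM. These 6 values share 1 library and are not independent. In the seventh, LF 2 of eWAT was the lowest of its group for Trem2, at 2.631 CPM.

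The HF against LF log2 difference was higher in eWAT than in liver for all 7 members with values in both tissues (for Cd9, 1.47 against -1.44), by the interaction in edgeR's quasi-likelihood test. The difference between tissues on the log2 scale was 4.986 for Trem2, 2.784 for Tyrobp, 5.272 for Gpnmb, 6.841 for Mmp12, 2.665 for Spp1, 2.842 for Cd9 and 3.857 for Lgals3. The members were listed with their eWAT values known, so these sizes are not independent evidence, and 45.6% of all genes in both tables differed between tissues.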

How the results depend on the processing

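With 6 libraries a group, depth limits mainly Tm4sf19 and Vsig8 in LF eWAT and Trem2, Gpnmb and Mmp12 in liver, which rest on few counts. In eWAT the HF against LF direction held for all 9 members under every alternative run, and the count of members called was 8 or 9. The count in HFLF against LF was 3 and moved most: 6 with DESeq2, 0 without the 6 libraries set apart, and 0 to 4 when 1 library was left out. The count lower in HFLF against HF was 7, 9 with DESeq2, and 1 without the 6 libraries set apart. The replicate numbers were not treated as pairs. In every same-tissue comparison the lowest correlation of a same-numbered pair was negative, and the highest was 0.232 to 0.582. A library correlated best with its own number in 0 to 2 of 6 cases. These values do not settle whether the numbers mark pairs. Between eWAT and liver, same-numbered libraries correlated weakly, by at least 0.056 in LF, -0.055 in HF and 0.018 in HFLF and by at most 0.174. There the own number was best in 4 of 6 LF cases and in 3 of 6 for each other diet. Unlinked numbers would give about 1 of 6. Libraries of 1 number may therefore share a mouse across tissues, which the main fit of the tissue difference does not allow for. With the replicate number as a block, 1 member was called in eWAT HFLF against LF, and over all genes 7 rose and 8 fell in place of 57 and 37. For Cd9 in that contrast, leaving out 1 library gave -0.03884 to 0.3879. All genes called in eWAT HFLF against LF were 366 higher and 338 lower with DESeq2, 27 and 23 in a fit of the 2 groups, 0 to 201 and 0 to 140 when 1 library was left out, 4 and 2 without the 6 libraries and 233 and 201 without the keratin-high ones. In eWAT HFLF against HF they were 622 and 768 without the 6 libraries. Relative to Adgre1 and to Cd68, the HF minus LF value of Tyrobp was -0.3113 and -0.7241, and the median of the members 2.19 and 1.778 in place of 3.169.

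In liver, values that missed the threshold changed sign with the setting. Upper-quartile scaling turned Tyrobp in HF against LF to 0.03469 and Spp1 in HFLF against LF to 0.04536, and the split of all genes in HFLF against LF from 1432 higher and 1744 lower to 1866 and 1158. A mean CPM of at least 5 turned Spp1 to 0.01625. The replicate block turned Gpnmb to 0.1906 and Mmp12 to 0.2285 in HFLF against LF. Without LF 1 to LF 4, which leaves 2 LF libraries, HF against LF was 0.1542 for Tyrobp and 0.5281 for Lgals3. HFLF against LF was then 0.3185 for Trem2, 1.042 for Gpnmb, 1.279 for Mmp12, 0.08731 for Spp1 and 0.2003 for Lgals3. All genes called without them were 158 higher and 139 lower in HF against LF, and 19 and 7 in HFLF against LF. In HFLF against HF, DESeq2 called 577 higher and 735 lower, the fit of the 2 groups 545 and 636 and the replicate block 166 and 278, in place of 307 and 428. Leaving out 1 library gave, in HF against LF, -0.16 to 0.5864 for Trem2, -0.2266 to 0.0818 for Tyrobp and -0.2047 to 0.293 for Spp1. In HFLF against LF it gave -0.3376 to 0.06613 for Trem2, -0.8133 to 0.6841 for Gpnmb, -0.7543 to 0.8663 for Mmp12 and -0.2105 to 0.09523 for Spp1, with 0 to 1 member lower. In HFLF against HF it gave -0.7797 to 0.08069 for Trem2 and -0.383 to 0.1851 for Spp1, with 0 to 1 member higher. The cause of these changes was not tested. All 7 tissue differences were called under the 3 alternatives run, 1 of them, a replicate block of diet and number shared by the tissues, chosen after seeing the data.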
